A study of Mus musculus with 8 samples.

Results

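The genes described here are 10 mouse genes of the interleukin 1 system, the inflammasome and the inflammatory cytokines: the ligands Il1a, Il1b and Il18, the receptor antagonist Il1rn, the sensor Nlrp3, the adaptor Pycard, the caspases Casp1 and Casp4, and the cytokines Tnf and Il6. They were chosen by name, as 10 of the 34199 genes in the count tables, with earlier results of these data known. Of these, 9, all except Il1a, passed a filter on low counts that 13080 genes passed. The gene lists below were also chosen with such results known. Counts of calls set beside the share of all genes are therefore a description. RNA was sequenced from iGMPs, granulocyte-macrophage progenitors from C57Bl/6 mouse bone marrow that carry a Lys-GFP reporter and were immortalised by HOXA9 fused to the ligand-binding part of an estrogen receptor, so that they self-renew while estradiol is present. The design held 4 groups of 2 libraries, all from such cells grown with stem cell factor from conditioned hamster cell medium. Cells labelled t0 (0 h) grew with estradiol at 150 ng/ml. In CAF-1 OFF, IPTG at 500 µM was present for 48 h, which switches on an shRNA against Chaf1b, a subunit of the histone chaperone CAF-1, with estradiol still present. IPTG treated control cells also received IPTG for 48 h; their labels do not give the dose or the vector, and the study's methods describe control clones with a spacer in place of the shRNA. Hoxa9 OFF cells were washed free of estradiol for 48 h. The inducible lines were clonal. The study's supplement mentions a pair of sub-clones behind its RNA tracks, but the labels tie no library to a clone or culture, so the p-values measure the spread between these samples, which may be technical in part.

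The IL-1β form of interleukin 1 is made as an inactive precursor in myeloid cells. NLRP3 senses damage or infection, assembles with the adaptor ASC (encoded by Pycard) and activates caspase-1, which cuts the precursors of IL-1β and IL-18 into their active forms; caspase-11 (encoded by Casp4) senses bacterial lipopolysaccharide inside the cell. Il1rn encodes a competitor that occupies the IL-1 receptor without signalling. In monocytes, macrophages and neutrophils, transcription of Il1b and Nlrp3 is the priming step that precedes processing. The tables hold RNA counts only, so none of these processing steps was measured.

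Gene counts per library ran from 14044284 to 22423837. Chaf1b was at 96.8 and 100.3 CPM (counts scaled to a common library total, with TMM, a correction for library composition) in t0, whereas CAF-1 OFF libraries held 18.7 and 9.72 CPM, so the targeted gene was lower in both libraries with that label. It was also lower in Hoxa9 OFF, at 48.3 and 41.0 CPM, than in the IPTG treated control, at 95.1 and 101.7 CPM. Hoxa9 activity depends on estradiol and not on transcript level, so Hoxa9 counts do not check the Hoxa9 OFF label. The first IPTG treated control library stood apart in having 14.6% of reads outside any gene, against 5.30% to 7.79% in the others.

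To show what lies upstream of the members that moved, 1 promoter window each is given for Il1b, Il1rn and Nlrp3, which rose in both the CAF-1 OFF and the Hoxa9 OFF cells, and for Il6, the member that fell in Hoxa9 OFF cells. The windows are from RefSeq on GRCm38.p6, run from 250 bases before to 50 bases after the first start site listed for the gene, and were found for all 10 members. Further start sites are listed for Il1rn and Nlrp3, and their windows, which differ in matches, are not shown. Which start site these cells use was not measured. They are chr2:129371090-129371389 on the minus strand for Il1b, chr2:24336610-24336909 on the plus strand for Il1rn, chr11:59542436-59542735 on the plus strand for Nlrp3 and chr5:30012864-30013163 on the plus strand for Il6. Capitals mark matches, on either strand, to the NF-kB pattern (GGG, any 5 bases, CC), the C/EBP pattern TTGCNNAA, the AP-1 pattern TGANTCA, the ETS pattern GGAAGT and the TATA box TATAAA.
Il1b promoter: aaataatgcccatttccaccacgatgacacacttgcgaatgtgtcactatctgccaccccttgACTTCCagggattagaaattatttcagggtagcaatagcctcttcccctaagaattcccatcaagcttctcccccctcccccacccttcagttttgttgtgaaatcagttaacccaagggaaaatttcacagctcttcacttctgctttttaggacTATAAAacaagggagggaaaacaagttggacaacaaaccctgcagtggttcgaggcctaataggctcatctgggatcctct
Il1rn promoter: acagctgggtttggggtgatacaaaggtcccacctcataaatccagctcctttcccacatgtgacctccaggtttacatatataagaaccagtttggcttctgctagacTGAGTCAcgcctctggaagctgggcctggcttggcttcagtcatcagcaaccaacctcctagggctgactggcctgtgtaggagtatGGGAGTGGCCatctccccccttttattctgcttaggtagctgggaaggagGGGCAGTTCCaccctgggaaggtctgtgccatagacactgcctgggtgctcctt
Nlrp3 promoter: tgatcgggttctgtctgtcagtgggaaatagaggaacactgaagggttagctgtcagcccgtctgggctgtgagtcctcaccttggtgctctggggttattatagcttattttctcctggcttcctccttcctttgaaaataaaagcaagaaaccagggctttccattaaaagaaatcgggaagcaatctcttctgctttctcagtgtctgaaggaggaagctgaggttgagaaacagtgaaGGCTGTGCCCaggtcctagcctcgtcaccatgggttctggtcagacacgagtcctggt
Il6 promoter: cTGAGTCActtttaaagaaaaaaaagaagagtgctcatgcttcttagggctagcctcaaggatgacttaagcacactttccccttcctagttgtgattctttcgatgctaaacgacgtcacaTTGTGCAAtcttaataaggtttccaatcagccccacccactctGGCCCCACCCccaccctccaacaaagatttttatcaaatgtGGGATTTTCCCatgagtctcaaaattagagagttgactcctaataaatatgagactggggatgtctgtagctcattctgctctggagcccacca
The Il1b window held 1 ETS match, at positions -187 to -182, and a TATA box at -31 to -26 from the start site. The Il1rn window held 2 NF-kB matches and 1 AP-1 match, and that of Nlrp3 held 1 NF-kB match across the start site. The Il6 window was the richest of the 4, with 3 NF-kB matches, of which a pair overlapped at -44 to -34, and with 1 C/EBP and 1 AP-1 match. These patterns are common letters: of 32851 promoter windows, 50.8% held the NF-kB pattern, 23.8% the ETS pattern, 13.6% the TATA box, 10.8% the C/EBP pattern and 7.81% the AP-1 pattern. A match is a description of the letters in the window and not a bound site.

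At t0 the inflammasome core was present as adaptor and caspase while its sensor and its cytokines were scarce. Levels of different genes are compared here as RPKM, CPM divided by exon length in kilobases. Pycard was highest, at 42.7 ± 7.06 RPKM (SD, n = 2, as for all group means here), followed by Casp1 at 26.9 ± 1.76 and Il6 at 8.24 ± 0.628 RPKM. Casp4 (1.56 ± 0.659), Nlrp3 (1.39 ± 0.676) and Tnf (1.13 ± 0.0882) had RPKM levels that did not differ beyond their spread. Below them lay Il18 at 0.311 ± 0.0087, Il1rn at 0.230 ± 0.109 and Il1b at 0.163 ± 0.231 RPKM, levels that again overlapped between libraries. In CAF-1 OFF, Pycard (30.5 ± 1.71 RPKM) and Casp1 (19.2 ± 4.04 RPKM) still led, and Nlrp3 at 7.0 ± 2.63 and Il1b at 4.50 ± 2.70 RPKM came next, beside Il6 at 3.84 ± 2.51 RPKM, 3 levels that overlapped between libraries. In Hoxa9 OFF, Nlrp3 at 40.9 ± 1.73 and Il1rn at 24.1 ± 10.3 RPKM stood below Pycard (68.2 ± 2.76) and Casp1 (56.0 ± 7.65), while Il1b at 2.09 ± 0.786 and Il6 at 1.91 ± 1.36 RPKM were the lowest of the 9.

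**Figure D1:**
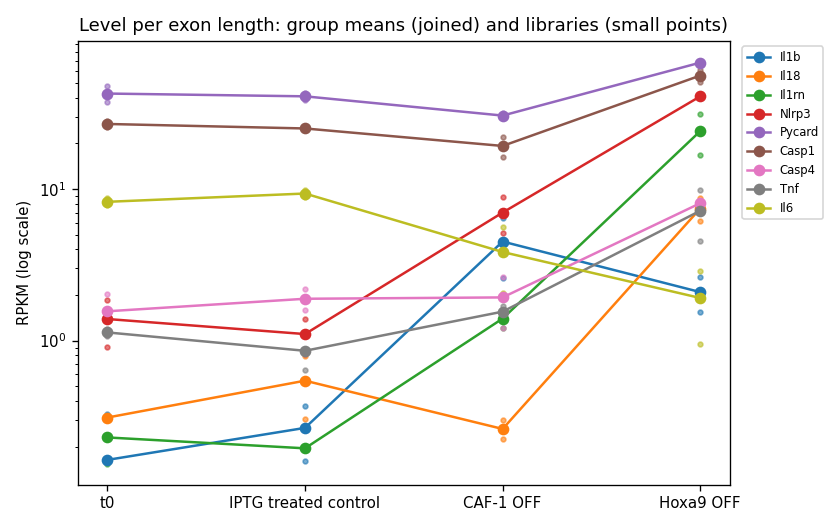
Level of the 9 tested members per exon length (RPKM, log axis) in the 4 groups; joined points are group means and small points are single libraries, of which the t0 library with no Il1b read cannot be drawn. Pycard and Casp1 lead in all 4 groups, while Nlrp3 climbs from 1.39 RPKM in t0 to 40.9 RPKM in Hoxa9 OFF.

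CAF-1 OFF cells were compared with t0 to ask which members change when CAF-1 is lost under self-renewing conditions. In all, 3 of the 9 members rose: Il1b, Il1rn and Nlrp3, by 27.3-fold, 6.02-fold and 5.02-fold. None was called lower. A call needed an FDR under 0.05 in edgeR's quasi-likelihood test with Benjamini-Hochberg adjustment over all 13080 genes and a change of at least 1.5-fold; 14.0% of all genes tested were called in this comparison, 10.5% higher and 3.50% lower. The count of members called was 1 without t0 replicate 1 and 0 without CAF-1 OFF replicate 2. The median log2 fold change of the 9 members was 0.30, against 0.01 over all genes. The other reference was the IPTG treated control, whose vector the labels do not give. Against it, 3 of the 9 members were called, all higher and again Il1b, Il1rn and Nlrp3, where 12.8% of all genes were called. The 2 comparisons share the CAF-1 OFF libraries. Between the IPTG treated control and t0, 0 of the 9 members and 0% of all genes were called by edgeR, with 100 genes (0.765%) at an unadjusted p under 0.05, and DESeq2 called 5 genes and no member.

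Withdrawal of estradiol, which lets these progenitors differentiate towards neutrophils, moved all 9 tested members, among them Il18, which passed the filter only because of its Hoxa9 OFF libraries; the other 8 were all called as well. In Hoxa9 OFF against t0, 8 rose and Il6 fell, where 47.2% of all genes were called, 25.2% higher and 22.1% lower. The median log2 fold change was 2.66 for the 9 members, Il18 included, and 0.01 over all genes. Scaling by library size alone moved the all-gene median to -0.18 and the share of calls that were higher from 53.3% to 42.3%, and each of the 9 members kept its direction. When CAF-1 OFF was set directly against Hoxa9 OFF, 7 of the 9 members, or 6 of 8 without Il18, were lower in CAF-1 OFF and none was higher, where 43.5% of all genes were called, 22.2% higher and 21.4% lower; with library size alone the share of calls that were higher in CAF-1 OFF went from 50.9% to 65.7%. Il1b and Il6 were the members not called between the 2 states.

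**Figure D2:**
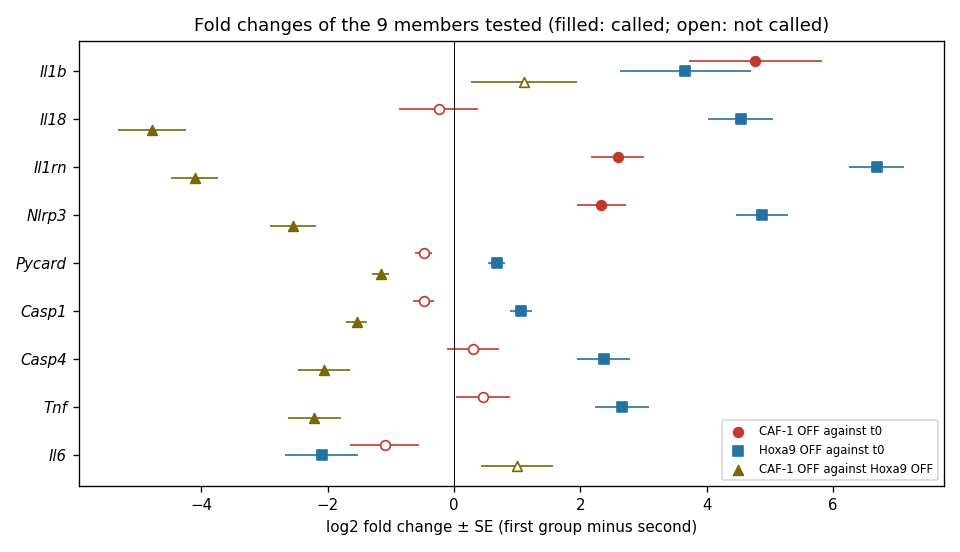
Log2 fold change (first group minus second) with its standard error for the 9 tested members in 3 comparisons; filled symbols were called and open symbols were not. In CAF-1 OFF against t0 the filled symbols are Il1b, Il1rn and Nlrp3, whereas in Hoxa9 OFF against t0 all 9 are filled, with Il6 alone to the left of 0.

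Il1b, which encodes the main secreted form of interleukin 1, lies at chr2:129190306-129196875 on the minus strand of mm9. It had 14 and 0 counts in the t0 libraries, 10 and 5 in the IPTG treated control, 94 and 234 in CAF-1 OFF and 93 and 59 in Hoxa9 OFF. On the CPM scale these were 0.623 and 0 in t0, 0.707 and 0.307 in the IPTG treated control, 4.95 and 12.2 in CAF-1 OFF and 5.05 and 2.93 in Hoxa9 OFF. Both perturbed groups lay above all 4 reference libraries and overlapped each other. The log2 fold change was 4.77 (SE 1.05, FDR 0.0205) in CAF-1 OFF against t0 and 4.09 (SE 1.03, FDR 0.0337) against the IPTG treated control. It was 3.66 (SE 1.03, FDR 0.0170) in Hoxa9 OFF against t0. Between CAF-1 OFF and Hoxa9 OFF the log2 difference was 1.11 (SE 0.84, FDR 0.298), an interval too wide to tell a higher from an equal level; it was 0.32 without CAF-1 OFF replicate 2. The fold against t0 rests on a reference of few reads: without t0 replicate 1 the remaining t0 library had no Il1b read, and the fitted log2 change rose to 10.3 for CAF-1 OFF and 9.22 for Hoxa9 OFF, while without t0 replicate 2 it was 3.77 (FDR 0.0518) and 2.66. Without CAF-1 OFF replicate 2 the log2 change against t0 was 3.97 and was not called (FDR 0.134), and that against the IPTG treated control was 3.29 (FDR 0.199); without IPTG treated control replicate 1 the latter was 4.76 (FDR 0.127).

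Gm14047 overlaps Il1b on the opposite strand, and whether the counting used the strand is not stated, so counts of the pair are uncertain. Gm14047 had 7 and 4 counts in t0, 14 and 28 in CAF-1 OFF, 4 and 0 in the IPTG treated control and 1 and 1 in Hoxa9 OFF, fewer than Il1b in each library except the t0 library without an Il1b read.

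Il1a encodes the other IL-1 receptor agonist, which is active without caspase cleavage. It lies at chr2:129125346-129135708 on the minus strand of mm9, 54597 bases from Il1b with no protein-coding gene between. Il1a had 3 and 0 counts in t0, 0 and 0 in the IPTG treated control, 4 and 6 in CAF-1 OFF and 4 and 1 in Hoxa9 OFF, and was not tested. A count of 0 allows up to 3 counts, which was 0.128 to 0.212 CPM across the libraries for counting error alone, so Il1a could not be told from absent in the references, and a change like that of its neighbour could not be assessed at this depth. Gm14023 overlaps it on the opposite strand and had 1 to 12 counts.

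Il1rn, the receptor antagonist, is at chr2:24192373-24207014 on the plus strand of mm9. It was at 0.490 and 0.984 CPM in t0, 0.636 and 0.613 in the IPTG treated control, 3.90 and 5.07 in CAF-1 OFF and 54.0 and 100.6 in Hoxa9 OFF. The 4 reference libraries were all under 1 CPM, the CAF-1 OFF libraries lay above them and the Hoxa9 OFF libraries lay far above both. The log2 fold change was 2.59 (SE 0.42, FDR 0.00939) in CAF-1 OFF against t0, 2.83 (SE 0.46, FDR 0.0110) against the IPTG treated control and 6.69 (SE 0.44, FDR 2.25e-05) in Hoxa9 OFF against t0, a 104-fold rise that was the largest among the members (log2 7.28 without t0 replicate 2). CAF-1 OFF was 17.2-fold below Hoxa9 OFF (FDR 0.000112). The call against t0 was lost without t0 replicate 1 (log2 2.18, FDR 0.0740) and without CAF-1 OFF replicate 2 (log2 2.39, FDR 0.0703), with the direction kept.

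The ratio of agonist to antagonist did not overlap between CAF-1 OFF and Hoxa9 OFF. The ratio of Il1b to Il1rn in RPKM was 2.14 and 4.06 in the CAF-1 OFF libraries and 0.157 and 0.0489 in the Hoxa9 OFF libraries. It was 2.14 and 0 in t0 and 1.87 and 0.841 in the IPTG treated control, where it rests on 23 reads of Il1rn or fewer. CAF-1 OFF lay above Hoxa9 OFF in both libraries and shared the range of the references at its lower library. An exact permutation test of 2 libraries against 2 cannot give a two-sided p below 0.333, so no test of the ratio was made.

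**Figure D3:**
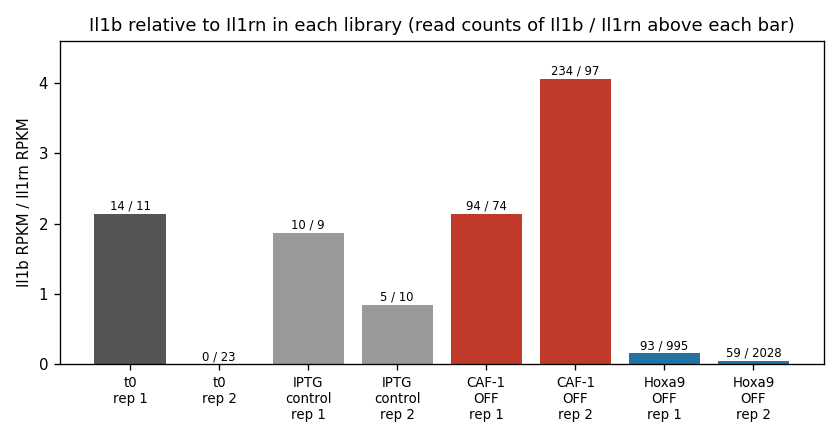
Ratio of Il1b to Il1rn RPKM in each of the 8 libraries, with the read counts of Il1b and Il1rn above each bar. The CAF-1 OFF bars stand at 2.14 and 4.06, the Hoxa9 OFF bars at 0.157 and 0.0489, and the t0 bars at 2.14 and 0.

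Il18, the other cytokine cut by caspase-1, is at chr9:50383378-50389942 on the plus strand of mm9 and behaved unlike Il1b. It had 5 and 5 counts in t0, 3 and 9 in the IPTG treated control, 3 and 4 in CAF-1 OFF and 80 and 123 in Hoxa9 OFF. The 6 libraries outside Hoxa9 OFF were all under 0.6 CPM, and the Hoxa9 OFF libraries were at 4.34 and 6.10 CPM. The log2 fold change in Hoxa9 OFF against t0 was 4.54 (SE 0.52), and in CAF-1 OFF against t0 it was -0.24 (SE 0.62, FDR 0.823). CAF-1 OFF was 27.5-fold below Hoxa9 OFF. Il18 reached the level the filter asks for, 0.516 CPM in at least 2 libraries, only because of the Hoxa9 OFF libraries, so it had to differ there, and these values are a description.

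Nlrp3, the sensor, lies at chr11:59355070-59380458 on the plus strand of mm9. It was at 3.69 and 7.57 CPM in t0, 3.32 and 5.64 in the IPTG treated control, 20.8 and 35.9 in CAF-1 OFF and 160.8 and 170.8 in Hoxa9 OFF, so the 3 levels did not overlap. The log2 fold change was 2.33 (SE 0.39, FDR 0.00994) in CAF-1 OFF against t0, 2.65 (SE 0.41, FDR 0.00932) against the IPTG treated control and 4.88 (SE 0.42, FDR 5.79e-05) in Hoxa9 OFF against t0. Without t0 replicate 2 the 2 changes against t0 were 2.94 and 5.48. CAF-1 OFF was 5.84-fold below Hoxa9 OFF (FDR 0.000911). As for Il1rn, the call against t0 was lost without t0 replicate 1 (log2 1.90, FDR 0.0685) and without CAF-1 OFF replicate 2 (log2 1.88, FDR 0.0729).

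Pycard, at chr7:135135617-135137381 on the minus strand of mm9, encodes the adaptor that bridges NLRP3 and caspase-1. It was at 66.9 and 52.9 CPM in t0, 60.2 and 54.7 in the IPTG treated control, 44.6 and 41.2 in CAF-1 OFF and 93.1 and 98.6 in Hoxa9 OFF. The CAF-1 OFF libraries were the lowest and the Hoxa9 OFF libraries the highest. In CAF-1 OFF against t0 the log2 fold change was -0.48 (SE 0.14, FDR 0.0433), past the FDR threshold but under 1.5-fold and so not called; without t0 replicate 2 it was -0.65 (FDR 0.0455) and was called. In Hoxa9 OFF against t0 it rose by 1.60-fold (log2 0.68, SE 0.14, FDR 0.00351), a call just over the fold threshold that ended without t0 replicate 2 (log2 0.52) and with scaling by library size alone (log2 0.49). The direct difference between CAF-1 OFF and Hoxa9 OFF was 2.23-fold (FDR 0.000356), lower in CAF-1 OFF.

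Sensor relative to adaptor was higher in both states than in the references. The ratio of Nlrp3 to Pycard in RPKM was 0.0191 and 0.0496 in t0, 0.0191 and 0.0357 in the IPTG treated control, 0.162 and 0.302 in CAF-1 OFF and 0.598 and 0.600 in Hoxa9 OFF. The 3 levels did not overlap.

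The caspase genes are neighbours, Casp1 at chr9:5298517-5307265 and Casp4 at chr9:5308828-5336783, both on the plus strand of mm9 and 1562 bases apart. No 50-base stretch of either was shared with the protein-coding transcripts of another gene. Casp1 was at 38.4 and 42.1 CPM in t0, 38.6 and 36.6 in the IPTG treated control, 24.5 and 33.1 in CAF-1 OFF and 75.8 and 92.0 in Hoxa9 OFF. It rose by 2.09-fold in Hoxa9 OFF against t0 (log2 1.06, SE 0.17, FDR 0.00107), and in CAF-1 OFF, where both libraries lay below all 4 references, the log2 difference from t0 was -0.48 (SE 0.17, FDR 0.0787). Casp4 was at 7.52 and 4.06 CPM in t0, 8.13 and 5.89 in the IPTG treated control, 4.53 and 9.78 in CAF-1 OFF and 29.4 and 30.4 in Hoxa9 OFF. Its CAF-1 OFF libraries overlapped those of t0 (log2 0.30, SE 0.41, FDR 0.625), and it rose by 5.16-fold in Hoxa9 OFF (log2 2.37, SE 0.42, FDR 0.00189). Relative to Casp1, Casp4 in RPKM was 0.0390 to 0.0850 in the references, 0.0745 and 0.119 in CAF-1 OFF and 0.157 and 0.133 in Hoxa9 OFF. Both caspases were lower in CAF-1 OFF than in Hoxa9 OFF, Casp1 by 2.91-fold (FDR 0.000257) and Casp4 by 4.18-fold (FDR 0.00416; log2 -2.06, and -2.72 without CAF-1 OFF replicate 2).

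Tnf and Il6, cytokines that act outside the inflammasome, moved in opposite directions in Hoxa9 OFF. Tnf, at chr17:35336326-35338952 on the minus strand of mm9, encodes the cytokine that signals through TNFR1 and TNFR2. It was at 1.96 and 1.75 CPM in t0, 1.77 and 1.04 in the IPTG treated control, 2.79 and 2.30 in CAF-1 OFF and 7.49 and 16.1 in Hoxa9 OFF. Its rise in Hoxa9 OFF was 6.33-fold (log2 2.66, SE 0.43, FDR 0.00124; log2 2.01 without Hoxa9 OFF replicate 2), and the log2 difference of CAF-1 OFF from t0 was 0.45 (SE 0.43, FDR 0.479), although both CAF-1 OFF libraries lay above the 4 references. CAF-1 OFF was 4.62-fold below Hoxa9 OFF (FDR 0.00340), a log2 difference of -2.21 that was -1.57 without Hoxa9 OFF replicate 2.

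Il6, at chr5:30339701-30346508 on the plus strand of mm9, encodes the ligand of the gp130 receptor complex. It was at 9.44 and 8.47 CPM in t0, 10.7 and 9.57 in the IPTG treated control, 6.11 and 2.25 in CAF-1 OFF and 1.03 and 3.12 in Hoxa9 OFF. The 4 references were above all 4 perturbed libraries, and the perturbed groups overlapped each other. In Hoxa9 OFF against t0 Il6 fell by 2.10 on the log2 scale (SE 0.57, FDR 0.0152), a call that was lost without t0 replicate 1 (FDR 0.0602); without Hoxa9 OFF replicate 2 the log2 change was -3.11. The log2 difference of CAF-1 OFF from t0 was -1.10 (SE 0.55, FDR 0.190), and it was -2.01 (FDR 0.0840) without CAF-1 OFF replicate 1 and -0.55 (FDR 0.611) without replicate 2. The difference from Hoxa9 OFF was 1.00 (SE 0.57, FDR 0.178), and leaving out 1 library of these groups moved it from 0.11 (FDR 0.900, without CAF-1 OFF replicate 1) to 2.00 (FDR 0.0291, a call, without Hoxa9 OFF replicate 2). The ratio of Tnf to Il6 in RPKM was 0.138 and 0.137 in t0, 0.109 and 0.0723 in the IPTG treated control, 0.303 and 0.679 in CAF-1 OFF and 4.82 and 3.41 in Hoxa9 OFF, in an order with no overlap.

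**Figure D4:**
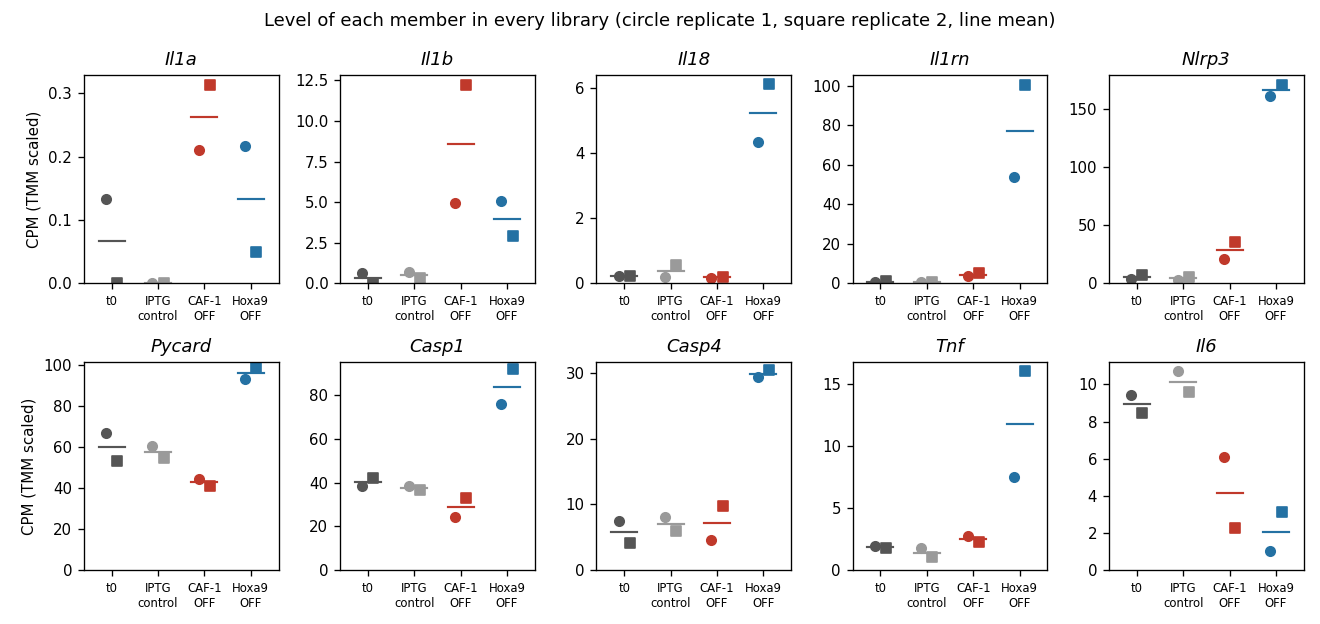
CPM of each of the 10 members in every library (linear axes from 0, a separate scale per gene), with circles for replicate 1, squares for replicate 2 and lines for group means; "IPTG control" is the IPTG treated control. Il1b has its highest mean in CAF-1 OFF (8.59 CPM) and Il6 has its lowest in Hoxa9 OFF (2.08 CPM).

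Replicates differed among themselves for these genes. In CAF-1 OFF, replicate 2, with Chaf1b at 9.72 CPM, was higher than replicate 1 for 7 of the 10 members, among them Il1b by 2.47-fold and Nlrp3 by 1.72-fold, and lower for Il6 by 2.72-fold. In Hoxa9 OFF replicate 2 was the higher library for 8 of the 10. The largest ratio between the Hoxa9 OFF replicates was 3.03 among members with more than 3 counts in both libraries, so such spread was not particular to CAF-1 OFF. In t0 replicate 2 was higher for 3 and in the IPTG treated control for 2. Against the IPTG treated control no member was called without CAF-1 OFF replicate 2, nor without either IPTG treated control library (FDR from 0.0518 to 0.199 for Il1b, Il1rn and Nlrp3, each still higher in CAF-1 OFF), and Il1b alone was lost without CAF-1 OFF replicate 1 (FDR 0.0569).

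The other genes of these pathways were read from 6 lists of 97 genes, of which 84 were tested. In CAF-1 OFF against t0, 27 of the 84 were called, 24 higher and 3 lower (14.0% of all genes were called), and in Hoxa9 OFF against t0, 55 were called, 54 higher and 1 lower (47.2% of all genes). The count for CAF-1 OFF fell to 5 without t0 replicate 1, 12 without t0 replicate 2 and 7 without CAF-1 OFF replicate 2. Against the IPTG treated control, 21 were called in CAF-1 OFF, falling to 5 without CAF-1 OFF replicate 2 and to 4 and 2 without the first and the second control library. Il1f9, Naip1, Nlrp1b and Tnip3 passed the filter only because of their Hoxa9 OFF libraries and Il1rl2 only because of those of CAF-1 OFF, and Il18r1 and Il27 passed through both perturbed groups and no reference library. A gene that passed in this way had to differ, so values are given for these 7 as a description. Over the 75 of the 84 genes that reached the filter's level in at least 2 of the 4 reference libraries and 2 of the 4 perturbed ones, 24 were called in CAF-1 OFF against t0, 21 higher and 3 lower (12.7% of all 11766 such genes), and 49 in Hoxa9 OFF, 48 higher and 1 lower (47.9%). In CAF-1 OFF against the IPTG treated control, 18 of the 75 were called, where 11.7% of all such genes and 12.8% of all genes tested were. Of the other pathway genes named in the text, 15 were called in CAF-1 OFF against t0, and 12 of them lost the call in at least 1 of the 4 fits without 1 of those libraries; the 3 that did not were Il1r2, Il33 and Nlrp10. In Hoxa9 OFF against t0, 18 were called, and Nlrp10 alone lost the call in such a fit. Set against Hoxa9 OFF, 54 were called in CAF-1 OFF, 6 higher and 48 lower, where 22.2% of all genes were called higher and 21.4% lower, with the dependence on scaling given above, and over the 75 genes 49 were, 5 higher and 44 lower; between the IPTG treated control and t0 0 were called by edgeR and 0 by DESeq2.

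**Figure D5:**
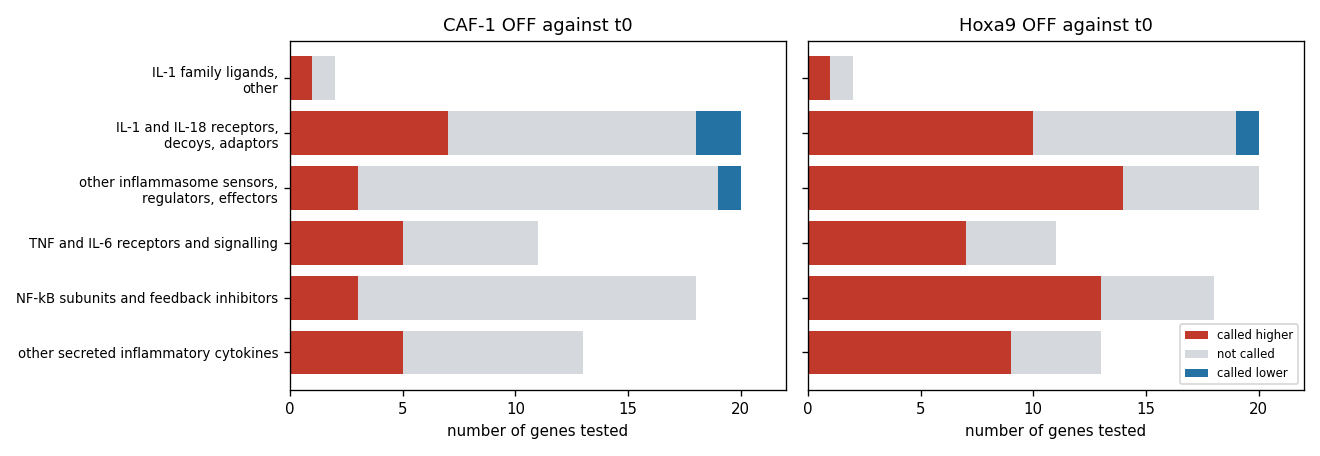
Number of tested genes of each pathway list called higher, not called or called lower in CAF-1 OFF against t0 and in Hoxa9 OFF against t0. The inflammasome list has 3 of 20 genes called higher in CAF-1 OFF and 14 of 20 in Hoxa9 OFF, and the NF-kB list has 3 and 13 of 18, genes that passed the filter only through Hoxa9 OFF included.

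Among the other IL-1 family ligands, 2 of 6 were tested. Il33, a nuclear alarmin, rose in CAF-1 OFF to 12.5 and 26.8 CPM from 0.712 and 0.684 CPM in t0 (log2 4.80, SE 0.48, FDR 0.00245; 17.7-fold without CAF-1 OFF replicate 2 against 27.9-fold with it), and its log2 difference in Hoxa9 OFF was -0.41 (FDR 0.521); CAF-1 OFF was 37.2-fold above Hoxa9 OFF (FDR 0.000146; 23.6-fold without CAF-1 OFF replicate 2). Il1f9, an IL-36 ligand, had 10 and 3 counts in t0, 6 and 17 in CAF-1 OFF and 70 and 49 in Hoxa9 OFF.

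Of the 20 genes for IL-1 and IL-18 receptors, decoys and adaptors, 7 rose and 2 fell in CAF-1 OFF, where 10.5% of all genes rose and 3.50% fell. In Hoxa9 OFF, 10 rose and 1 fell, where 25.2% of all genes rose and 22.1% fell. Without Il18r1 and Il1rl2, 5 of 18 rose in CAF-1 OFF and 9 of 18 in Hoxa9 OFF. Il1r2, a decoy that binds IL-1 without signalling, was at 0.668 and 0.727 CPM in t0, 5.21 and 9.78 in CAF-1 OFF and 34.3 and 48.7 in Hoxa9 OFF, a rise of 10.7-fold (FDR 0.00315) and of 58.9-fold (FDR 2.43e-05). Its order was that of the antagonist Il1rn. Il18r1, a subunit of the IL-18 receptor, had 4 and 0 counts in t0, 52 and 57 in CAF-1 OFF and 18 and 19 in Hoxa9 OFF. Il1rl2, the IL-36 receptor, had 8 and 2 counts in t0, 64 and 155 in CAF-1 OFF and 3 and 5 in Hoxa9 OFF. Il18bp, the soluble IL-18 binder, rose by 16.0-fold in Hoxa9 OFF (FDR 0.000926) and by 10.5-fold without Hoxa9 OFF replicate 2, with a log2 difference of 1.25 in CAF-1 OFF (FDR 0.173). Sigirr, an inhibitory receptor of the family, fell by 0.82 on the log2 scale in CAF-1 OFF (FDR 0.0120) and fell by 2.49 in Hoxa9 OFF (FDR 2e-05).

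Of 20 other inflammasome sensors, regulators and effectors of pyroptosis, 3 rose and 1 fell in CAF-1 OFF, near the share of all genes called (14.0%), and 14 rose in Hoxa9 OFF (25.2% of all genes), or 12 of 18 without Naip1 and Nlrp1b. Nlrp10, an NLR protein without the leucine-rich repeats of its relatives, went from 0.490 and 0.642 CPM in t0 to 178.4 and 187.7 CPM in CAF-1 OFF, a 319-fold rise (log2 8.32, SE 0.58, FDR 0.000908), and to 1.03 and 4.31 CPM in Hoxa9 OFF. CAF-1 OFF was 67.4-fold above Hoxa9 OFF for it (FDR 8.42e-05; 42.1-fold without Hoxa9 OFF replicate 1 and 175-fold without replicate 2), the opposite order to Nlrp3. Nlrp12 rose by 3.52-fold in CAF-1 OFF (FDR 0.0191) and 22.3-fold in Hoxa9 OFF (FDR 7.68e-05). Nlrc4, which responds to bacterial flagellin through NAIP proteins, rose by 1.84-fold (FDR 0.0442) and 5.51-fold (FDR 0.000139). P2rx7, the ATP-gated channel upstream of NLRP3, was at 2.00 and 2.74 CPM in t0 and 38.9 and 112.5 in Hoxa9 OFF, a 31.8-fold rise (FDR 0.000201) that was 16.4-fold without Hoxa9 OFF replicate 2. Its log2 difference in CAF-1 OFF was 1.08 (FDR 0.184). Naip1 had 0 counts in the 6 libraries outside Hoxa9 OFF and 17 and 145 there (0.922 and 7.19 CPM), so that its mean there rests on 1 library. Nlrp1b had 2 and 3 counts in t0 and 40 and 75 in Hoxa9 OFF. Naip1 and Nlrp1b have near-identical relatives, so reads may have been split or lost between copies.

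In the signalling of TNF and IL-6, 5 of 11 genes rose in CAF-1 OFF (10.5% of all genes) and 7 of 11 in Hoxa9 OFF (25.2% of all genes), with none called lower. Set against the IPTG treated control, 3 of the 11 were called in CAF-1 OFF, where 12.8% of all genes were. Socs3, the feedback inhibitor of gp130 signalling, rose by 4.02-fold in CAF-1 OFF (FDR 0.00721) and 4.70-fold in Hoxa9 OFF (FDR 0.00047). Adam17, the protease that sheds TNF, rose by 1.93-fold in CAF-1 OFF (FDR 0.0110) and was at a log2 difference of 0.50 in Hoxa9 OFF, under 1.5-fold. Stat3, the transcription factor downstream of IL-6, rose by 1.71-fold (FDR 0.00516) and 2.50-fold (FDR 3.52e-05). Receptor genes were among those that rose in Hoxa9 OFF, where Il6ra, the IL-6 receptor, went up by 7.63-fold (FDR 8.19e-05) while its ligand fell, and Tnfrsf1b, which encodes TNFR2, by 4.76-fold (FDR 1.19e-05).

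Of 18 NF-kB subunits and feedback inhibitors, 3 rose in CAF-1 OFF, near the 10.5% of all genes that rose there and so no result about the list, and 13 in Hoxa9 OFF (25.2% of all genes), or 12 of 17 without Tnip3. The 3 were the inhibitors Nfkbia (1.93-fold, FDR 0.0114), Nfkbie (2.07-fold, FDR 0.0228) and Tnfaip3 (1.95-fold, FDR 0.0340). Set against the IPTG treated control, 1 of the 18 was called in CAF-1 OFF, where 12.8% of all genes were. In Hoxa9 OFF Tnfaip3, which encodes the ubiquitin editor A20, rose by 7.41-fold (FDR 7.20e-05). Zfp36, whose product destabilises Tnf messenger RNA, rose by 24.8-fold there (FDR 2.72e-05). Tnip3 had 4 and 0 counts in t0 and 11 and 166 in Hoxa9 OFF, where 1 library held most of its reads.

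Among 13 tested genes for other secreted cytokines, 5 rose in CAF-1 OFF (10.5% of all genes) and 9 in Hoxa9 OFF (25.2% of all genes), or 4 and 8 of 10 without Csf2, Il23a and Il27, which did not reach the filter's level in 2 reference and 2 perturbed libraries. Tnfsf13b, which encodes BAFF, rose by 6.13-fold in CAF-1 OFF (FDR 0.0147; 3.22-fold, FDR 0.0753, without CAF-1 OFF replicate 2) and by 11.8-fold in Hoxa9 OFF (FDR 0.000699). Ltb, a subunit of lymphotoxin, rose by 3.57-fold in CAF-1 OFF (FDR 0.00568) and in Hoxa9 OFF by 12.9-fold (FDR 2.74e-05). Il27 had 3 and 2 counts in t0, 11 and 18 in CAF-1 OFF and 45 and 32 in Hoxa9 OFF. Csf1, the macrophage growth factor, rose by 18.9-fold in Hoxa9 OFF (FDR 0.00126), where its libraries were at 63.7 and 315.6 CPM, and by 6.36-fold without Hoxa9 OFF replicate 2 and 31.5-fold without replicate 1, and had a log2 difference of -0.41 in CAF-1 OFF (FDR 0.688).

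Neutrophil granule markers summed higher in CAF-1 OFF and Hoxa9 OFF than in the references, and macrophage and monocyte markers did so only in Hoxa9 OFF. The summed level of 10 neutrophil granule genes was 96.1 to 97.8 CPM in t0, 99.1 to 101.4 in the IPTG treated control, 1283 to 2223 in CAF-1 OFF and 6350 to 9370 in Hoxa9 OFF, with 6 and 10 of the 10 called higher against t0 in the last 2 groups, where 10.5% and 25.2% of all genes were, or 6 and 7 of 7 without Camp, Ltf and Ly6g, which were under the filter's level in most references. Most of the CAF-1 OFF sum was Mmp8, at 1091 and 1937 CPM, while Ltf was at 0.474 and 0.523 CPM and Mmp9 at 1.95 and 3.50 there. That of 8 macrophage and monocyte genes was 396.6 to 560.1 CPM in t0, 410.5 to 509.1 in the IPTG treated control, 283.9 to 552.8 in CAF-1 OFF and 1236 to 1930 in Hoxa9 OFF, with 3 and 6 of 7 tested genes higher. Most of that sum in t0 was Ccr2, at 331.1 and 522.0 CPM, which was at 164.9 and 286.6 in Hoxa9 OFF (not called, FDR 0.147), while Csf1r, Emr1 and Cd68 were among the 6 that rose; Marco was at 0 in all 8 libraries. Markers of granulocyte-macrophage progenitors, the labelled cell type, were abundant, at 10666 to 14547 CPM over 7 genes in t0, 10881 to 13897 in the IPTG treated control, 15795 to 15825 in CAF-1 OFF and 5566 to 7561 in Hoxa9 OFF. Against t0, 4 of the 7 fell in Hoxa9 OFF, where 22.1% of all genes did, and 1 rose in CAF-1 OFF, where 10.5% did. Lymphoid genes (8) summed to 2.12 to 3.31 CPM in the references, 16.6 to 17.2 in CAF-1 OFF, mostly Cd79a, and 3.85 to 8.88 in Hoxa9 OFF, with Cd3e, Cd3g, Cd8a and Ncr1 at 0 throughout. Markers of lineages outside this path moved as well. Mast cell and basophil genes (5) summed to 768.1 to 1158 CPM in CAF-1 OFF and 216.2 to 282.3 CPM in the other groups, with Fcer1a at 0 in t0 and the IPTG treated control. Erythroid and megakaryocyte genes (9) summed to 25.8 to 28.2 CPM in the references, 199.9 to 253.0 in CAF-1 OFF and 144.6 to 145.2 in Hoxa9 OFF. Dendritic cell genes (6) summed to 15.7 to 30.0 CPM in Hoxa9 OFF and 216.8 to 351.5 CPM elsewhere, with Siglech at 0 outside Hoxa9 OFF. Nearly all of that sum outside Hoxa9 OFF was Flt3, which is also in the progenitor list and fell by 5.68 on the log2 scale in Hoxa9 OFF (FDR 0.000115), while Itgax rose there (log2 2.70, FDR 0.00942). Fibroblast and endothelial genes (7) summed to 229.5 to 254.1 CPM in the references, 349.5 to 393.2 in CAF-1 OFF and 309.3 to 373.1 in Hoxa9 OFF, nearly all of it Pecam1, with Dcn at 0 throughout. In these bulk samples, fewer cells of a type and less RNA per cell cannot be told apart, and the part of these marker changes in the levels of the members was not tested.

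The genes most like each member were sought by Pearson's r of log2 CPM over the 8 libraries among genes whose log2 CPM averaged 1 or more. The 8 points share libraries and 4 group levels, so many genes score high, and r is given as a description. For Nlrp3 these were Ms4a6b (r = 0.997) and Ltb (r = 0.996), with 550 genes above 0.95, and for Il1rn they were Tmem184b (r = 0.999) and Tmem9b (r = 0.996), with 749 above. Il1b had few such genes, 12 above 0.95, led by Gm16576 (r = 0.974) and Polr3b (r = 0.965), and Il6 had 42, led by Ak4 (r = 0.989) and Sod2 (r = 0.986). The leading pairs were Uvrag and Yipf1 for Il18, Iah1 and Rhoa for Pycard, Chmp1a and 2400001E08Rik for Casp1, BC026585 and Rgs2 for Casp4, and Lgals8 and Scamp1 for Tnf, all with r from 0.985 to 0.995.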

How the data were processed

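Per the labels and the study's methods, RNA was extracted with a Qiagen kit, made into libraries with an NEB kit and sequenced, and the authors aligned reads to mm9 with STAR and counted them per gene with HTSeq; the annotation and strand setting are not given in the sources used here. The deposited values are raw counts, 1 table per library, without pooling; 5 summary lines per table were set aside. All 8 libraries entered 1 fit in edgeR 4.0.16 (R 4.3.3) with filterByExpr, TMM and a mean per group, with a shared biological coefficient of variation of 18.9%. RPKM used exon lengths from GENCODE vM1. The 10 members and all gene lists were chosen with earlier results of these data known. Besides the members, the text names up to 3 genes per list and comparison with the largest change among calls whose groups do not overlap, and the 2 genes most like each member; Sigirr and the genes overlapping Il1a and Il1b were added after their values were seen. Of the macrophage markers, 1 is not reported here. DESeq2 1.42.0 was an alternative. The fit was also run on simulated data, and the outcome is not given here.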

Additional observations from a re-analysis of the deposited data

How the results depend on the processing

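The alternatives were DESeq2 size factors, library size only, no filter or a mean of 50 counts, DESeq2's test, a fit of the compared groups alone, a replicate block, each library left out and other thresholds. Leaving out 1 library at a time, members called went from 0 to 3 in CAF-1 OFF against t0 and from 0 to 3 against the IPTG treated control, and pathway genes called from 5 to 30 and from 2 to 25. In the left-out fits, a lone library is assumed to vary like the other groups. At FDR 0.01 and 2-fold, 1 member was called against the IPTG treated control, and 7 and 6 pathway genes were called against t0 and the IPTG treated control. Scaling, filter, DESeq2 and the fit of the compared groups alone left each count of members and pathway genes within 1.5 times its value. Directions that turned without 1 library were of uncalled members: in the IPTG treated control against t0 the log2 change ranged from -0.22 to 0.12 for Pycard, -0.32 to 6.24 for Il1b, -0.65 to 0.35 for Il1rn, -0.76 to 0.29 for Nlrp3, -0.10 to 0.78 for Casp4 and -0.041 to 1.31 for Il18, and for Casp4 in CAF-1 OFF from -0.35 to 0.81 against t0 and from -0.63 to 0.46 against the IPTG treated control. Of 667 single-member values under an alternative, 634 kept direction and call, 19 lost and 2 gained a call and 12 turned. The replicate block left 3, 9, 0, 3 and 7 members called in the 5 comparisons, as without it; same-numbered libraries did not deviate together where CAF-1 OFF was involved (r from -0.04 to 0.08, against 0.30 to 0.48 elsewhere), and pairing was not assumed. Low reference counts limit the folds of Il1b, Il1rn and Il18.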
